A study of Homo sapiens with 7 samples.

Results

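KDM5A is a histone demethylase that removes methyl groups from lysine 4 of histone H3, and its gene lies on the minus strand of chromosome 12. H3K4me3, the trimethylated form of that lysine and a mark of active promoters, was measured by ChIP-seq (sequencing of DNA pulled down with an antibody to the mark) in 1 library for each of 3 transfections. The cells were HCT116, a human colon cancer line, with genotype KDM5A-/- in every group, and they were fixed 24 h after transfection with mutant KDM5A (KDM5A_MUT), wild-type KDM5A (KDM5A_WT) or an empty vector (EV). The labels name neither the residues changed in the mutant nor the vector, and the sources used here do not give the share of cells that took up DNA. All 21 listed regions that overlap KDM5A between positions 389200 and 500000 of chromosome 12 (hg19) were taken, of 30840 regions listed in the genome. One of them, at chr12:496602-499566, is the promoter region, and the other 20, called narrow regions here, lie downstream of it in the direction of transcription. The regions were selected on position, but the gene itself was chosen by its RPM (defined below) in these 3 libraries, where earlier results showed large differences from the empty vector, so its values are given as a description, with no test.

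H3K4me3 normally sits around the transcription start of an active gene and is sparse over exons and introns farther downstream, where other marks prevail. A transfected gene is most often carried as cDNA, the coding sequence without introns, and reads from fragments of a cDNA align to the exons of the gene when they are mapped to the genome. ChIP-seq of transfected cells can therefore place reads over a gene that come from its chromatin, from the introduced DNA, or from both. The input libraries, which hold DNA without immunoprecipitation, are not analysed here, and the part of introduced DNA in the reads described below was not tested.

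The promoter sequence of KDM5A is shown because the promoter region held the most reads of the locus in the empty vector library. The window runs from 250 bases before to 50 bases after the RefSeq start, on the minus strand of GRCh38.p14 (chr12:389271-389570), a build other than that of the regions, so that the sequence and the regions cannot be laid over each other base by base. Capitals mark GGGCGG, the reverse of CCGCCC, and CTTCCGG, a core that ETS factors bind.
KDM5A promoter: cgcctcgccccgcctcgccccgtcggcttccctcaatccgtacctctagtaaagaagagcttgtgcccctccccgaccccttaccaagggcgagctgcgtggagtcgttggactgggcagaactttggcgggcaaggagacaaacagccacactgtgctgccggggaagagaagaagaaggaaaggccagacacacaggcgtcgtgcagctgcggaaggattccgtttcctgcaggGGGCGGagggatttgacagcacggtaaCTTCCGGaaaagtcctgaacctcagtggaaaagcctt
CCGCCC, the motif that the ARID domain of KDM5A is known to bind and also a GC box of SP1, was searched on both strands and matched once, and 44.9% of 34943 RefSeq promoter windows of this length hold it. CTTCCGG, also searched on both strands, matched once, against 10.2% of windows. The motifs do not overlap. Neither CCAAT nor TATAAA was found on either strand of this window, and 34.6% and 11.6% of windows hold them. The window has 20 CG dinucleotides, where the median window has 14. In the same annotation the start of CCDC77, on the opposite strand, lies 27 bp from that of KDM5A, so that a mark over this start cannot be given to 1 of the genes alone.

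Read depth was 9906508 reads for mutant KDM5A, 10852411 for wild-type KDM5A and 10713021 for the empty vector, and values are in RPM, the reads of a region per 1000000 reads of its library. Without replicates, every interval is a 95% interval that covers counting error only. The libraries come from bulk cells, in which the number of cells carrying a signal and the signal per cell cannot be told apart. Outside the locus, the 10881 regions with a mean of 20 RPM or more (strong regions) had a median ratio to the empty vector of 0.843 with mutant KDM5A and 0.901 with wild-type KDM5A.

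The targeted gene is given first in every library. Summed over the 20 narrow regions, the library of mutant KDM5A had 4825 reads (487 RPM, 473 to 501), that of wild-type KDM5A had 4297 reads (396 RPM, 384 to 408) and that of the empty vector had 43 reads (4.01 RPM, 2.90 to 5.41). The narrow regions thus took 0.0487% of all reads with mutant KDM5A, 0.0396% with wild-type KDM5A and 0.000401% with the empty vector. Relative to the empty vector the ratio was 121 for mutant KDM5A (89.9 to 168) and 98.6 for wild-type KDM5A (73.1 to 137). The gene was picked on these values, so they are no independent check of which cells received KDM5A. Nor do they check the knockout, because the labels do not tell which part of the gene was deleted.

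The promoter region did not share this pattern. It had 59.96 RPM with mutant KDM5A, 57.96 RPM with wild-type KDM5A and 55.1 with the empty vector, from 594, 629 and 590 reads. The promoter region was thus marked in all 3 libraries, and the empty vector alone gave a level above that of 85.3% of all listed regions. The ratio to the empty vector was 1.09 for mutant KDM5A (0.970 to 1.22) and 1.05 for wild-type KDM5A (0.939 to 1.18), and both intervals include 1. Set against the narrow regions of the same library, the promoter region had 0.123 times their summed RPM with mutant KDM5A and 0.146 times with wild-type KDM5A, but 13.7 times with the empty vector.

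**Figure D1:**
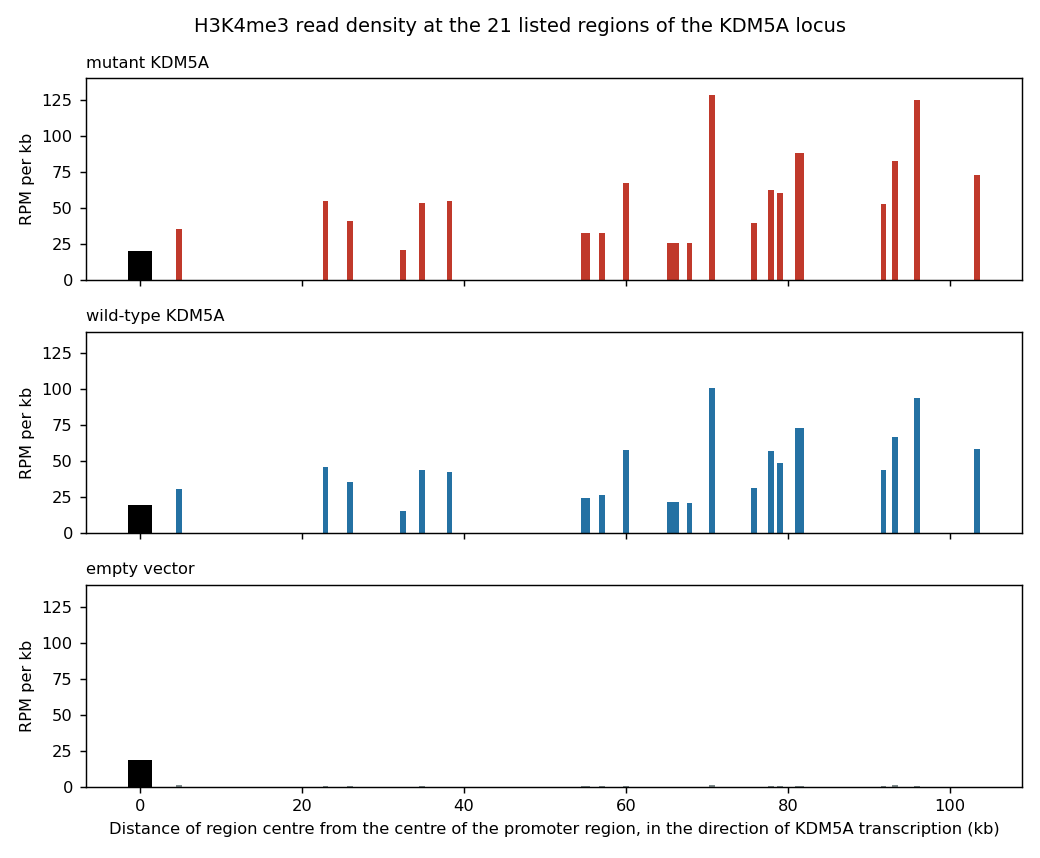
Read density in RPM per kb (vertical axis, bars from 0) at the 21 listed regions, placed by the distance in kb of their centre from the centre of the promoter region, with 1 panel per library; bars are drawn at their true width or at 0.7 kb where the region is narrower. The promoter region (black) has a similar height in each panel, between 18.6 and 20.2 RPM per kb, and the 20 narrow regions (coloured) reach 128 with mutant KDM5A, 101 with wild-type KDM5A and 1.15 with the empty vector.

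The narrow regions lay scattered along the gene and did not form a continuous domain. They ran from chr12:394565-394888 to chr12:493145-493388, a span of 98824 bp, and covered 8.63% of it with 8530 bp. The 19 gaps between neighbours ranged from 800 to 17804 bp with a median of 2671 bp, and the table lists no region inside them. The gaps of 16108 and 17804 bp were the only ones over 10 kb. Below the lowest region, at the 3' end of a minus-strand gene, another 5365 bp of the locus held no listed region, and between the highest narrow region and the promoter region lay 3213 bp. Exon positions on hg19 are not used here, so the regions were not matched to exons one by one.

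Width set the narrow regions apart from the promoter region. The promoter region was 2965 bp wide, and the median of all listed regions was 1268 bp. The narrow regions had a median width of 290 bp, 17 of them were between 208 and 436 bp wide, and 3 were wider than 1 kb, at 1057, 1094 and 1465 bp. Wider regions held more reads. Among the 17 regions under 1 kb, Pearson's r between width and RPM was 0.943 with mutant KDM5A and 0.947 with wild-type KDM5A, a description of regions that share a library. Over all 20 it was 0.648 and 0.656, since 2 of the 3 wide regions held fewer reads for their width.

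**Figure D2:**
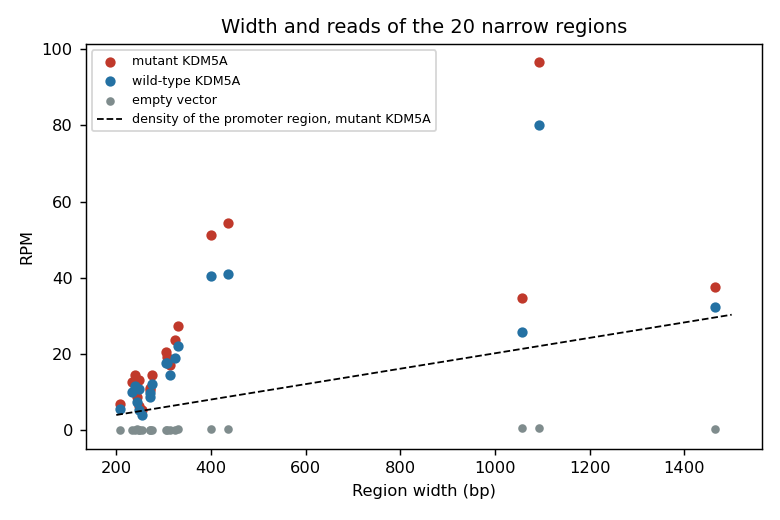
RPM (vertical axis) against region width in bp (horizontal axis) for the 20 narrow regions in each library, with a dashed line for the density of the promoter region with mutant KDM5A. All 20 regions of the mutant KDM5A library lie above the line, and all 20 of the empty vector library lie below 1 RPM.

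With either form of KDM5A, the median narrow region held more reads per kb than the promoter region. The median density was 54.3 RPM per kb with mutant KDM5A, 43.98 with wild-type KDM5A and 0.383 with the empty vector. The promoter region had 20.2, 19.5 and 18.6 RPM per kb in those libraries. The narrow regions exceeded the promoter region in 20 of 20 cases with mutant KDM5A and in 19 of 20 with wild-type KDM5A, the exception being chr12:465526-465780 with 15.9 RPM per kb. With the empty vector, 0 of 20 exceeded it. The promoter region was denser than 94.4%, 89.9% and 81.1% of all listed regions with mutant KDM5A, wild-type KDM5A and the empty vector. Among all 30840 listed regions, the 100 with the most reads per kb included 17 of the narrow regions with mutant KDM5A, 15 with wild-type KDM5A and 0 with the empty vector. The 13032 regions under 1 kb outside the locus had medians of 2.62, 2.62 and 2.60 RPM per kb in the same libraries. Of these regions, 99.98% were less dense than the median narrow region of KDM5A, with mutant as with wild-type KDM5A. Most of them are weak: 416 had a mean of 5 RPM or more, with a median of 6.93 RPM per kb with mutant KDM5A. The gene was picked on its RPM in these libraries, so its high place is a description and no further result. In the empty vector library, 1.15% of all regions had a density below the median of the narrow regions. With at most 8 reads each in that library, the narrow regions probably entered the list through the KDM5A libraries. Their low place with the empty vector would follow from that and is no further result.

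The 3 regions with the highest mean RPM were also the 3 with the highest density. The region chr12:427249-427648 had 51.3 RPM with mutant KDM5A, 40.5 RPM with wild-type KDM5A and 0.373 with the empty vector, and its 128 RPM per kb with mutant KDM5A was the second highest density of all listed regions. The region chr12:401910-402345 had 54.5, 41.1 and 0.280 RPM, with 125 RPM per kb in the mutant library. These regions are 400 and 436 bp wide and lie among the 10 farther from the promoter. The widest of the 3, chr12:416074-417167, had 96.5, 79.98 and 0.747 RPM and 88.2 RPM per kb in the mutant library. Together these regions held 41.5% of the reads over narrow regions with mutant KDM5A and 40.8% with wild-type KDM5A. The other 2 regions over 1 kb wide were less dense: chr12:431540-433004 had 25.7 RPM per kb with mutant KDM5A and chr12:442584-443640 had 32.9.

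Each end of the narrow set showed the same contrast between libraries. The lowest in coordinate, chr12:394565-394888, had 23.7 RPM with mutant KDM5A and 18.9 RPM with wild-type KDM5A, while the library of the empty vector held 0 reads. Against a floor of 3 reads (0.280 RPM) it was at least 84.7-fold higher with mutant KDM5A and at least 67.5-fold higher with wild-type KDM5A. The lower limits of the exact two-sided intervals of these ratios, which allow the empty vector up to 0.344 RPM, were smaller, at 68.4 and 54.4. The region nearest the promoter, chr12:493145-493388, had 8.68, 7.56 and 0.280 RPM, and its ratio to the empty vector was 31.0 with mutant KDM5A (10.3 to 153) and 26.98 with wild-type KDM5A (8.91 to 134). The weakest region, chr12:465526-465780, had 5.25 and 4.05 RPM with the forms of KDM5A and 0 reads with the empty vector. The highest level of any narrow region with the empty vector was 0.747 RPM. The gene was picked for this contrast, and its regions are not replicates.

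**Figure D3:**
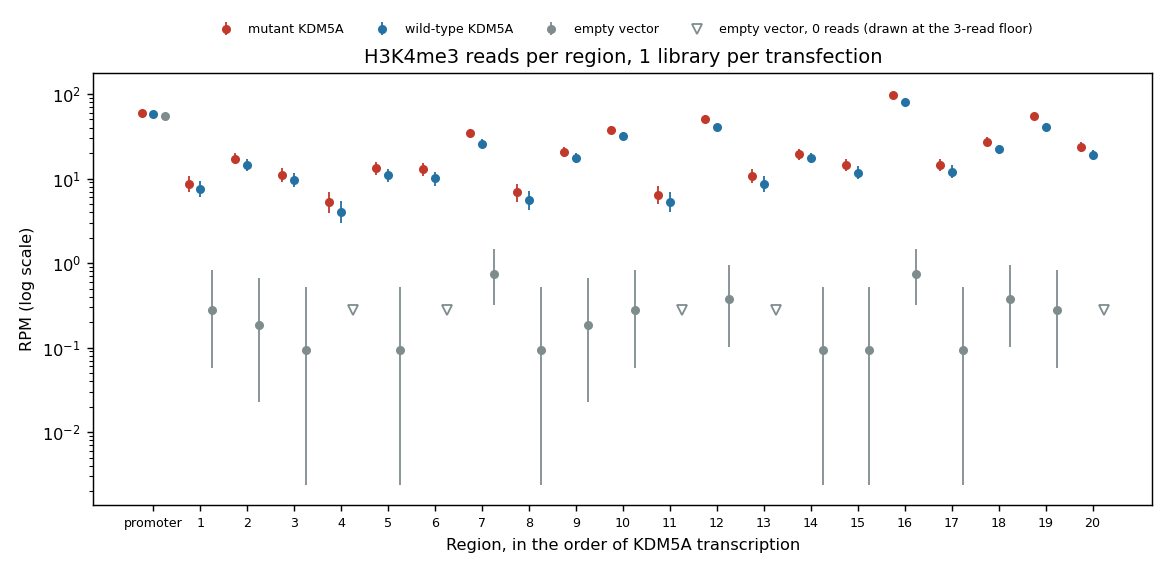
RPM on a log axis for the promoter region and the 20 narrow regions, numbered in the order of transcription, with mutant KDM5A (red), wild-type KDM5A (blue) and the empty vector (grey); bars are exact Poisson 95% intervals and open triangles mark 0 reads, drawn at the floor of 3 reads. At the promoter region the 3 libraries lie together, while at each narrow region the empty vector lies below 1 RPM and both forms of KDM5A above 4 RPM.

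Counted at 1.5-fold on a log2 scale with a pseudocount of 0.7 RPM, which understates the change of weak regions, all 20 narrow regions were higher with mutant KDM5A than with the empty vector, where 6.61% of all listed regions were. With wild-type KDM5A it was again 20 of 20, against 6.23%. The gene was picked for this contrast and the regions are parts of 1 gene, so these counts were to be foreseen. They describe the locus and are not an enrichment. Log2 ratios on this scale ran from 3.09 to 6.07 with mutant KDM5A, with a median of 4.30 beside −0.18 over all listed regions. With wild-type KDM5A they ran from 2.76 to 5.80, with a median of 4.05 beside −0.11. Both comparisons use the same empty vector library. The 43 reads of that library were spread thinly, with 5 narrow regions at 0 reads, 11 with 1 to 3, and at most 8 reads in a region. Ratios of single regions to the empty vector therefore have wide intervals, and the sum is the firmer value.

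A pattern of under 1 RPM with the empty vector and 5 RPM or more with both forms of KDM5A was met by 19 listed regions, 0.0616% of the table, and all 19 were narrow regions of KDM5A. The limits were set with these values known, so the count describes the table and supports nothing further. The 20th narrow region missed the limit through its 4.05 RPM with wild-type KDM5A. Outside the locus, 15108 regions had a mean of 5 RPM or more. Of these, 0 were past 2-fold over the empty vector with both forms on the log2 scale with the pseudocount. All 20 narrow regions were past 4-fold on that scale. The limit of 5 RPM was not asked of the narrow regions, and 14 of the 17 under 1 kb meet it. Weaker regions outside the locus were left out, so the sets are not filtered alike. In plain RPM, 1 of the 15108 was past 2-fold with both forms, chr2:33141308-33141755. Among the 15108, the regions most like KDM5A, by the lower of their 2 log2 ratios to the empty vector, were far from it in size. The first of them, the same region of chromosome 2, had 7.47 RPM with mutant KDM5A, 6.36 RPM with wild-type KDM5A and 2.99 with the empty vector, a lower log2 ratio of 0.94. The next 4 lay at chr8:23202744-23204904, chr10:104393293-104395030, chr17:55952116-55953888 and chr1:207200421-207201304, with lower log2 ratios between 0.69 and 0.77.

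The mutant and wild-type libraries gave nearly the same profile along KDM5A, at different heights. Over the 20 narrow regions Pearson's r of their RPM was 0.998, a value in which shared region width has a part. The summed RPM was 1.23-fold higher with mutant KDM5A than with wild-type KDM5A (1.18 to 1.28), and mutant KDM5A was higher in 20 of 20 regions, where 36.3% of all listed regions were higher with it. The single ratios ran from 1.10 to 1.35. Past 1.5-fold on the log2 scale were 0 of 20, against 5.19% of all listed regions. A count of 0 among 20 is near that share and says nothing particular about these regions. The single ratios were alike in direction, but they come from parts of 1 gene in 1 pair of libraries. Their counting intervals are wider than their range, up to 0.850 to 1.98 at chr12:465526-465780. Strong regions elsewhere had a median ratio of 0.937, below 1.

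Along the gene the ratio of mutant to wild-type KDM5A showed no step. In the 10 narrow regions nearer the promoter it was 1.22 (1.14 to 1.31), and in the 10 farther from it 1.24 (1.17 to 1.30), so that the nearer 10 had 0.986 times the ratio of the farther 10 (0.905 to 1.08). All 20 single intervals include the pooled ratio of 1.23, and 7 of 20 lie wholly above 1. Those 7 are the regions with the most reads in both libraries, so that this count follows depth. The share of all listed regions with such an interval was not computed. Among regions with at least 100 reads in the 2 libraries together, the highest ratios were at chr12:442584-443640, with 34.8 against 25.8 RPM (1.35, 1.15 to 1.59), and at chr12:401910-402345 (1.33, 1.17 to 1.51). The lowest were at chr12:419994-420301, with 19.3 against 17.6 RPM (1.10, 0.892 to 1.35), and at chr12:472051-472322, with 11.1 against 9.68 RPM (1.15, 0.870 to 1.51). The intervals of the highest and the lowest overlap, so no region was told apart from the others by its ratio. Read counts do not show changed bases, so these ratios could not place the mutation at any depth.

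**Figure D4:**
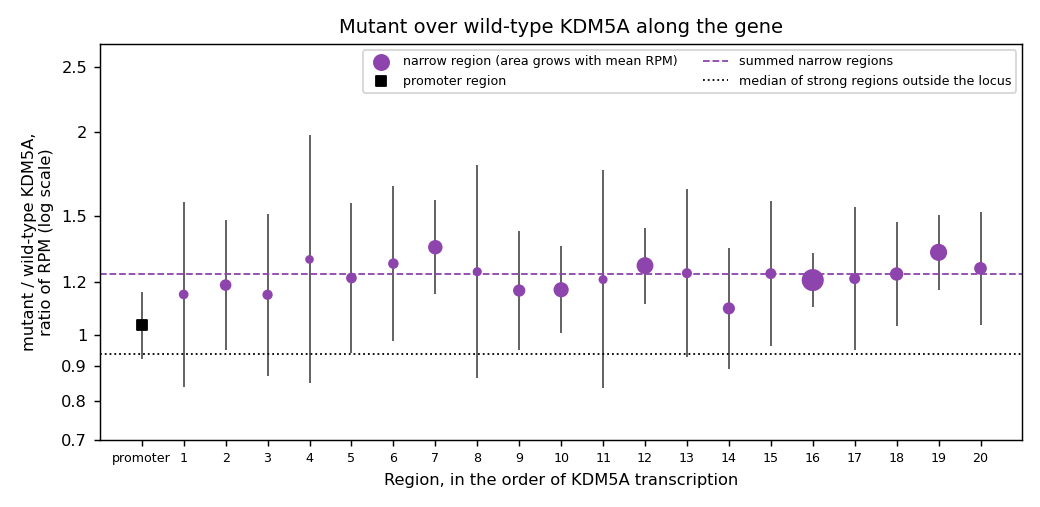
Ratio of RPM with mutant KDM5A to that with wild-type KDM5A (log axis) at the promoter region (black square) and the 20 narrow regions in the order of transcription, with exact 95% counting intervals. The narrow regions lie around the dashed line of their pooled ratio, 1.23, and the promoter region at 1.03 lies between it and the dotted median of strong regions outside the locus, 0.937.

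The level of reads, unlike the ratio, differed between the ends of the gene. The 10 regions farther from the promoter had 81.1 RPM per kb with mutant KDM5A, 65.7 with wild-type KDM5A and 0.523 with the empty vector. The 10 nearer the promoter had 36.6, 29.99 and 0.426 RPM per kb in those libraries. A few regions weigh heavily on these values. The 3 densest regions all lie among the farther 10. The wide regions chr12:431540-433004 and chr12:442584-443640, with 25.7 and 32.9 RPM per kb with mutant KDM5A, lie among the nearer 10. Spearman's rho between the place in transcription order and the density was 0.564 with mutant KDM5A and 0.577 with wild-type KDM5A over 20 regions, again a description. The empty vector library, with 22 reads in the farther regions and 21 in the nearer, held too few to show such a difference.

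Against other strong regions the promoter region had high ratios of either form of KDM5A to the empty vector. With mutant KDM5A its ratio to the empty vector, 1.09, was higher than that of 99.8% of the 10881 strong regions, of which the middle 90% lay between 0.734 and 0.964. For wild-type KDM5A its 1.05 was higher than that of 97.3%, with the middle 90% between 0.795 and 1.02. For mutant over wild-type KDM5A its 1.03 (0.923 to 1.16) was higher than that of 89.8%. These shares describe a region picked with its values known. The lower ends of its intervals, 0.970 and 0.939, lie above the medians of 0.843 and 0.901. With wild-type KDM5A the lower end is within the middle 90% of strong regions, and with mutant KDM5A it is just above it. The intervals cover counting error only, so this is a description and no test.

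**Figure D5:**
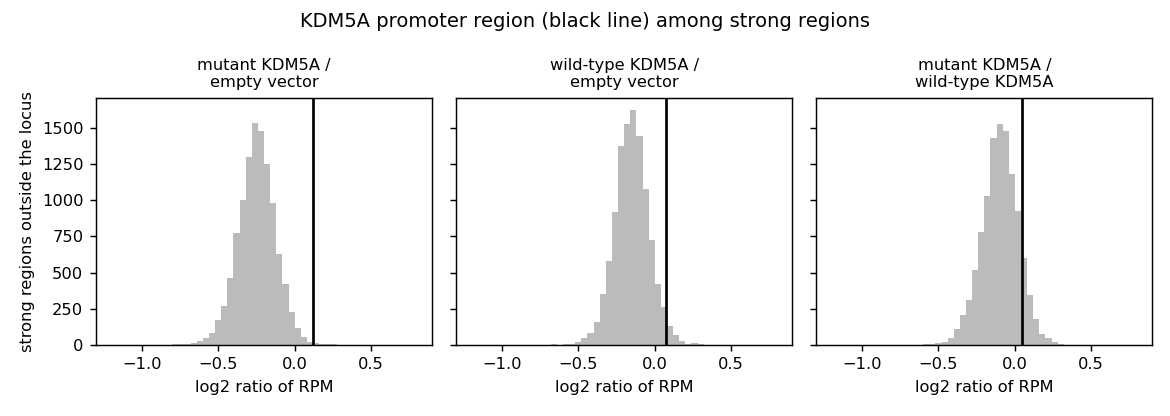
Histograms of the plain log2 ratio of RPM over the 10881 strong regions outside the locus (vertical axis, number of regions) for the 3 pairs of libraries, with a black line at the KDM5A promoter region. The line lies at 0.12, 0.074 and 0.049, in the right tail of the first 2 histograms and less far out in the third.

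The strong listed regions next to the locus did not show the contrast of the narrow regions. Beyond the promoter, chr12:510176-511677 had 22.8 RPM with mutant KDM5A, 21.3 RPM with wild-type KDM5A and 25.4 with the empty vector, and chr12:568293-570551 had 29.6, 31.1 and 32.95 RPM. With mutant KDM5A their ratios to the empty vector were both 0.90, higher than those of 78.5% and 78.2% of strong regions. With wild-type KDM5A the ratios were 0.838 and 0.945, higher than those of 16.6% and 74.6%. For mutant over wild-type KDM5A they were 1.07 (0.888 to 1.29) and 0.95 (0.809 to 1.11), higher than those of 95.4% and 57.3%. The first of these shares is above the 89.8% of the promoter region of KDM5A. On the other side of the gene, the nearest listed regions were weak. The region chr12:298107-298294 had 1.01, 0.553 and 0.653 RPM, and chr12:288253-288532 had 0.908, 0.461 and 0.0933 RPM, from 9 reads, 5 reads and 1 read. At the last of these the mutant library had 9.73 times the level of the empty vector library, with an interval of 1.35 to 427. The wild-type library had 4.94 times that level (0.552 to 233). Low depth leaves both intervals wide, so whether this region shares the contrast cannot be told.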

How the data were processed

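H3K4me3 ChIP-seq of 3 libraries was used, from a table of 30840 regions in which the authors deposited the RPM of each library. The submitters' processing notes name Bowtie2 2.5.4, MACS, MACS2, HOMER, deepTools 3.5.6 and the build hg19. The sources used here do not give how peaks were called and reads counted. In the table's header the column for the empty vector has H3K4me4, which was taken to mean H3K4me3. In each library 100% of RPM values were multiples of a fixed step (within 0.02 reads), from which whole reads and depth were recovered. Starts are given 1-based. RPM sets libraries to 1 total and no spike-in was used here.

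Ratios are plain ratios of RPM with exact conditional (Clopper-Pearson) 95% intervals, and levels have exact Poisson intervals. PCR copies are not independent molecules, so these cover counting error only. With 1 library per group no test was made. The named regions are the 3 highest in mean RPM and in RPM per kb, the 2 highest and 2 lowest in the ratio of mutant to wild-type KDM5A with 100 reads or more, the first and last region, 2 neighbours on each side, and the 5 most alike elsewhere. Others are named as exceptions, as extremes or for their width, chosen after their values were seen. The members and lists were chosen with earlier results of these data known. Sequences are from RefSeq (GRCh38.p14), in which KDM5A was matched by symbol. Alternatives were other scalings, pseudocounts, thresholds and sets of regions. Intervals were computed with scipy 1.17.1, tables with pandas 2.3.3 and numpy 2.4.6 in Python 3.11.15, and plots with matplotlib 3.10.9.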

Additional observations from a re-analysis of the deposited data

How the results depend on the processing

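Of 67 recomputed values, 60 stayed within the counting interval, or within 1.5 times for counts, and 7 moved. None of the 67 reversed direction. Some of the 60 could not change and say nothing about stability. Scaling of libraries cancels in density ratios within a library and in the comparison of nearer with farther regions. A limit of 5 RPM in either KDM5A library kept all 20 narrow regions, whose lowest level with mutant KDM5A was 5.25 RPM. Scaling to a median ratio of 1 over strong regions gave 1.31 for mutant over wild-type KDM5A over the narrow regions and 1.29 for mutant KDM5A over the empty vector at the promoter region. Scaling to equal sums over listed regions outside the locus gave 1.31 and 1.28. Reducing each width by 150 bp at both ends changed the median density of narrow regions over that of the promoter region to 31.0 with mutant KDM5A, 25.8 with wild-type KDM5A and 0.140 with the empty vector, in place of 2.68, 2.25 and 0.0206, a median over 10 regions. The other 10 are 300 bp wide or less and were dropped, and those little over 300 bp keep a few bases, so that these values mix the trim with a changed set. All counts past 1.5-fold stayed at every region retained, also at pseudocounts of 0.07 and 3.5 RPM and at a 2-fold threshold. No paired analysis was possible because each group has 1 library, and for the same reason no replicate could be left out. Depth limits single ratios to the empty vector, where a region had at most 8 reads.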

Other observations

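The promoter region would have had 46.4 RPM with mutant KDM5A and 49.6 RPM with wild-type KDM5A if its ratio to the empty vector had been the median of strong regions. The measured levels were above these by 13.5 RPM (7.42 to 19.6) with mutant KDM5A and 8.36 RPM (2.32 to 14.4) with wild-type KDM5A, with intervals from counting error alone. Single narrow regions ran from 5.25 to 96.5 RPM with mutant KDM5A, with a median of 15.9 RPM. With wild-type KDM5A they ran from 4.05 to 79.98 RPM, with a median of 13.3 RPM. Both amounts lie in these ranges, which are so wide that this says little. The source of the amounts was not tested. The measure of RPM above the median ratio was chosen after the values were seen.

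Outside the locus, 416 regions under 1 kb had a mean of 5 RPM or more. Their median ratios were 0.848 for mutant KDM5A over the empty vector, 0.918 for wild-type KDM5A over the empty vector and 0.925 for mutant over wild-type KDM5A, and their highest ratios were 2.501, 2.13 and 1.63. Their median density was 6.93 RPM per kb with mutant KDM5A, 7.56 with wild-type KDM5A and 8.18 with the empty vector.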
